A study of Mus musculus with 10 samples.

Results

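The transcripts described here are those of 10 genes that serve the response of Leydig cells to luteinizing hormone (LH) and the making of androgen: Star, Cyp11a1, Cyp17a1, Hsd3b1, Hsd3b6, Hsd17b3, Insl3, Lhcgr, Nr5a1 and Fdx1. They were taken by gene symbol from the deposited table, which lists 15507 genes, and all 10 were found and tested. The RNA came from germ cells of 5 wild-type (WT) mice and 5 homozygous GRTH knock-in (KI) mice, all 45 days old, with 1 library for each mouse. GRTH is a testis RNA helicase regulated by gonadotropin, Ddx25 is its mouse gene, and the KI mice carry a human GRTH with the mutation R242H on both alleles. The cells were dispersed from testis with collagenase and trypsin and were not sorted, so that spermatogonia, spermatocytes and spermatids were sequenced together.

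Leydig cells lie between the seminiferous tubules. LH binds the receptor Lhcgr, cAMP rises, and cholesterol is moved into mitochondria, where its side chain is cleaved; the product is carried through further enzymes to testosterone, which spermatogenesis needs. Leydig cells are also the source of the peptide hormone INSL3. Most of these transcripts are not known from the germ cells that the labels name, so the defining Leydig genes were looked at first, as a check of the labelled cells.

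Leydig cell transcripts were present in every library, at levels far above the value of 3 reads, which was 2.61 to 3.62 normalized counts depending on the library. The lowest member value was 81.2 normalized counts, for Lhcgr in WT library 4, and the highest was 16918, for Insl3 in KI library 3. Depth was similar in the genotypes, with 13323024 to 16422347 reads in WT libraries and 12722086 to 15500582 in KI libraries. Ddx25, the targeted gene, was at 8231 ± 2209 normalized counts in WT and 101 ± 91.7 in KI (SD, n = 5 each; log2 fold change −7.84, SE 1.03, limma adjusted p = 5.6e-05), and every library labelled KI was below every library labelled WT. The reads were aligned to the mouse genome, so RNA of the human GRTH in KI may be missing from the value of Ddx25. Spermatocyte markers summed to between 49445 and 65436 normalized counts in the 10 libraries. In what follows a normalized count is a read count divided by the size factor of its library, log2 fold changes are KI against WT on log2(value + 1), and a gene is called when its adjusted p is under 0.05 and its fold change at least 1.5.

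All 10 members had a higher mean in KI than in WT. Of them, 4 were called higher in KI (Cyp11a1, Cyp17a1, Hsd3b6 and Insl3), against 6.13% of all genes tested, and 7 passed the adjusted p alone, against 9.65%. None was called lower, where 8.22% of all genes were, so that 0 of 10 is near that share. The median log2 fold change of the members was 0.66, while that of all 15389 genes tested was 0.03. More Leydig cells in a suspension, more RNA of these genes per cell and less RNA from other cells cannot be told apart in such bulk libraries. Round spermatid markers summed to 102251 to 184323 normalized counts in WT and 24135 to 48710 in KI. Prm1, Tnp2 and Tnp1 made up most of the mean sum in each genotype. Their means were 47741, 47057 and 28024.5 in WT and 6844, 9859 and 6762 in KI. Only these 3 of the 10 markers were called lower, while 7 passed the adjusted p alone as lower. The part of the round spermatid markers in the member differences was not tested. With the replicate number as a block, 6 members were called (Hsd3b1 and Lhcgr in addition, against 6.93% of all genes). All 10 passed the adjusted p alone with the block, against 14.7%. The block assumes that libraries of the same number belong together, which the sources used here do not say. For number 2 the correlation of the WT and KI libraries was only 0.105. On the recovered reads edgeR called 3 members (Cyp11a1, Cyp17a1 and Insl3; 6.17% of all genes) and DESeq2 called 6 (6.62%).

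**Figure D1:**
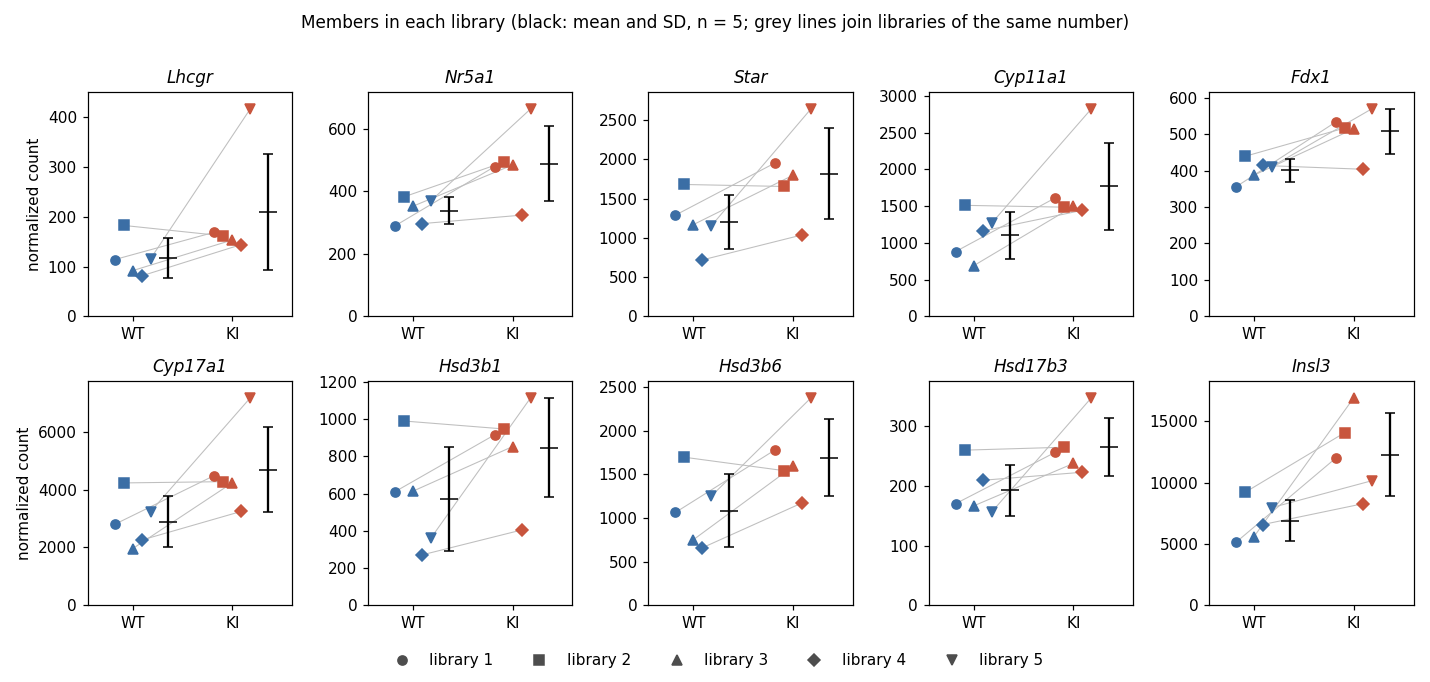
Normalized count of each member (vertical axes from 0, 1 panel per gene) in the 5 WT (blue) and 5 KI (red) libraries; symbols mark the library number, grey lines join libraries of the same number, and black marks with bars show the mean and SD. The genotypes overlap in every panel, WT library 2 is the highest WT point in all 10 panels and KI library 4 the lowest KI point in all 10.

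Lhcgr, the receptor for LH and the entry point of the pathway, was the least abundant member per exon length. WT libraries 1 to 5 had 114, 183, 91.8, 81.2 and 116 normalized counts, and KI libraries 1 to 5 had 169, 162, 153, 144 and 417. KI library 5 stood far above the other KI libraries, and WT library 2 lay above all of the KI libraries except that one. The log2 fold change was 0.76 (SE 0.27), and the gene missed the adjusted threshold (limma adjusted p = 0.0583) but was called with the replicate block (adjusted p = 0.0153).

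Nr5a1 encodes steroidogenic factor 1, the nuclear receptor that turns on many genes of steroid synthesis. It was measured at 290, 383, 353, 297 and 370 normalized counts in WT libraries 1 to 5 and at 480, 494, 485, 324 and 664 in KI libraries 1 to 5. KI libraries other than number 4 were above every WT library. Nr5a1 was higher in KI by 0.50 on the log2 scale (SE 0.16, adjusted p = 0.0306), which is under the fold change of 1.5.

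Star, the protein that brings cholesterol to the inner mitochondrial membrane and is the acute control point of steroid output, had 1290, 1681, 1169, 719 and 1153 normalized counts in WT libraries 1 to 5. In KI libraries 1 to 5 it had 1956, 1656, 1799, 1038 and 2644. KI library 4 fell within the WT range, and so did KI library 2, just under WT library 2. The log2 fold change was 0.58 (SE 0.23) and the adjusted p 0.0792, so that Star was not called. With the block its adjusted p was 0.00392, and its fold change lay just below the limit of 1.5.

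Cyp11a1 cleaves the cholesterol side chain and makes pregnenolone, the first committed step of steroid synthesis. WT libraries 1 to 5 had 882, 1510, 688, 1160 and 1267 normalized counts and KI libraries 1 to 5 had 1612, 1485, 1496, 1442 and 2822. The first 4 KI libraries lay close together near the highest WT library, and KI library 5 lay far above. Cyp11a1 was called higher in KI (log2 fold change 0.69, SE 0.21, adjusted p = 0.0287). Fdx1, the ferredoxin that hands electrons to this mitochondrial enzyme, had the smallest standard error and the smallest log2 fold change of the members. It ranged from 356 to 439 normalized counts in WT, with a median of 411, and from 404 to 570 in KI, with a median of 517, with a log2 fold change of 0.33 (SE 0.11, adjusted p = 0.0361). Only KI library 4 overlapped the WT range of Fdx1.

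Cyp17a1 turns progestins into androgens and was the most abundant enzyme of the set per exon length. It had 2798, 4230, 1958, 2255 and 3238 normalized counts in WT libraries 1 to 5 and 4487, 4274, 4235, 3246 and 7170 in KI libraries 1 to 5. All KI libraries except number 4 were above every WT library. The gene was called higher in KI (log2 fold change 0.70, SE 0.21, adjusted p = 0.0259). Hsd17b3, which makes testosterone from androstenedione in the last step, ranged from 156 to 260 normalized counts among WT libraries (median 171), and from 223 to 348 among KI libraries, with a median of 257. WT library 2 lay within the KI range. Its log2 fold change was 0.47 (SE 0.16, adjusted p = 0.0398), under the fold change of 1.5.

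Hsd3b1 and Hsd3b6 encode 3-beta-hydroxysteroid dehydrogenases, and Hsd3b6 is known as the form of adult Leydig cells. Hsd3b6 had 1064, 1697, 751, 659 and 1251 normalized counts in WT libraries 1 to 5 and 1781, 1544, 1592, 1173 and 2377 in KI libraries 1 to 5. WT library 2 was above 3 of the KI libraries. Hsd3b6 was called higher in KI (log2 fold change 0.69, SE 0.23, adjusted p = 0.0413). The call was lost by edgeR (adjusted p = 0.0568) and held in 3 of 10 fits that left out 1 library. Hsd3b1 was at 611, 991, 614, 271 and 361 in WT libraries 1 to 5 and at 917, 948, 854, 405 and 1115 in KI libraries 1 to 5. Its libraries 4 were the lowest in each genotype, and the standard error of its log2 fold change was the largest of the members. The log2 fold change of Hsd3b1 was 0.64 (SE 0.31), with a 95% interval from −0.03 to 1.31 and an adjusted p of 0.162, or 0.0125 with the replicate block.

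Both genes lie close together on chromosome 3. Because their sequences resemble each other, reads could be divided wrongly between them, so that their separate values are uncertain to that extent. How reads were divided between the genes was not tested. Of their 1119 coding bases, 1007 (90.0%) were the same and 112 differed, and no window of 150 bases, the length of 1 read, was free of a difference (fewest 7, median 14). A stretch of coding bases 94 to 153, in which 15 bases differ, is shown for both from the mm10 reference, with the differing bases in capitals.
Hsd3b1: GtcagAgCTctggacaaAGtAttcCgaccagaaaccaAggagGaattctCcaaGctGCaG
Hsd3b6: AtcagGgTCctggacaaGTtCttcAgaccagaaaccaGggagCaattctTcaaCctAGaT
Summed into 1 value, the pair had a log2 fold change of 0.66 and an adjusted p of 0.0581, a sum chosen after the values were seen.

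Insl3, the Leydig peptide hormone that guides descent of the testis, was the most abundant member per exon length. WT libraries 1 to 5 had 5143, 9211, 5603, 6590 and 7974 normalized counts, and KI libraries 1 to 5 had 12006, 14082, 16918, 8281 and 10156. All KI libraries except number 4 were above every WT library, and KI library 4 was below WT library 2. Insl3 was called higher in KI with the largest log2 fold change of the 10 by limma (0.82, SE 0.19, adjusted p = 0.00551), and it was called in each of the 10 fits that left out 1 library. The Jak3 gene is annotated across Insl3 on the same strand, and it stood at 240 ± 42.8 normalized counts in WT and 267 ± 28.0 in KI (SD, n = 5 each), a small fraction of the Insl3 count. By edgeR the log2 fold change of Lhcgr (0.84) was slightly above that of Insl3 (0.83).

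**Figure D2:**
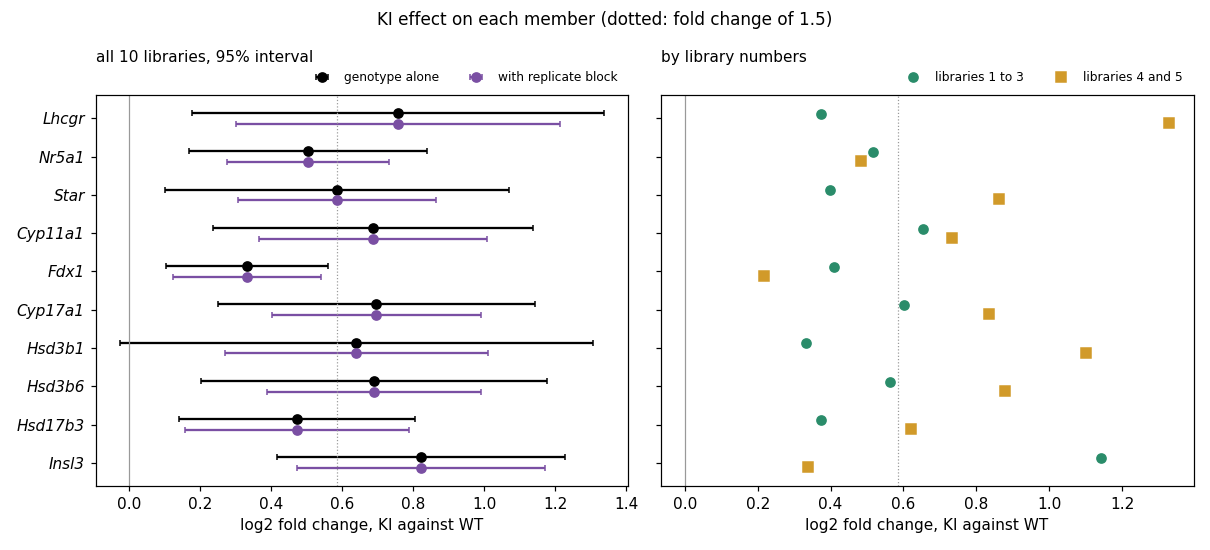
Log2 fold change (KI against WT) of each member. Left, all 10 libraries with 95% intervals from limma without (black) and with (purple) the replicate block; right, libraries 1 to 3 (green circles) and libraries 4 and 5 (yellow squares) alone; the dotted line marks a fold change of 1.5. All points lie above 0, the interval of Hsd3b1 without the block reaches below 0, and Insl3 is higher in libraries 1 to 3 while Lhcgr is higher in libraries 4 and 5.

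Within a genotype the same libraries were high or low for most members. WT library 2 was the highest WT library for 10 of 10 members and KI library 4 the lowest KI library for 10 of 10. KI library 5 was the highest KI library for 9 of 10, the exception being Insl3. No member had every KI library above every WT library, which 6.8% of all genes did, so that 0 of 10 is near the background. Between libraries of the same number, KI was higher for 10 of 10 members in pairs 1, 3 and 5, for 9 in pair 4 (all but Fdx1) and for 5 in pair 2, where the median log2 difference was −0.004. In pair 5 the median log2 difference was 1.15. Cyp17a1, Hsd17b3, Insl3 and Nr5a1 were higher in KI in 5 of 5 pairs, as were 18.2% of all genes tested.

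Single libraries decided how many members were called. Without WT library 1, without WT library 3 or without KI library 5, only Insl3 was called (5.29%, 5.87% and 5.47% of all genes), and without WT library 4 only Cyp11a1 and Insl3 were (5.6%). Without WT library 2 the number was 8 (5.98% of all genes), and without KI library 4 it was 7 (6.59%). The members were higher in KI on average in each of these fits, with median log2 fold changes between 0.49 and 0.83. With the replicate block, 2 members (Hsd3b6 and Insl3) were called when number 5 was left out (6.23% of all genes) and 8 when number 4 was (7.13%).

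Libraries 1 to 3 and libraries 4 and 5 differ in mean read quality in the study's alignment statistics, so each set was also fitted alone. In libraries 1 to 3 the log2 fold change was 1.14 for Insl3, 0.37 for Lhcgr, 0.33 for Hsd3b1 and 0.40 for Star. In libraries 4 and 5 it was 0.34 for Insl3, 1.33 for Lhcgr, 1.10 for Hsd3b1 and 0.86 for Star. The difference between the sets was tested by an interaction term, and none of the 10 members passed the adjusted threshold (lowest limma adjusted p = 0.164, for Insl3). Over all genes 38, or 0.247%, passed it, so that 0 of 10 is near the background. Insl3 was also the only member at an unadjusted p under 0.05. In libraries 4 and 5 alone, with 2 libraries for each genotype, Lhcgr was the only member called (limma adjusted p = 0.0409), against 3.06% of all genes. Insl3 was not called in those libraries (limma adjusted p = 0.213).

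The genotype-centred values of 9 members correlated over the 10 libraries. The correlation of each of these with the mean of the other members ran from 0.69 (Cyp11a1) to 0.93 (Cyp17a1), and that of Insl3 was 0.38. These are descriptions of 10 libraries that share their depth and their cell mixture. Insl3 made up 40.4 to 52.1% of the summed member counts in WT and 35.9 to 59.8% in KI, with both KI extremes in libraries 5 (lowest) and 3 (highest).

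**Figure D3:**
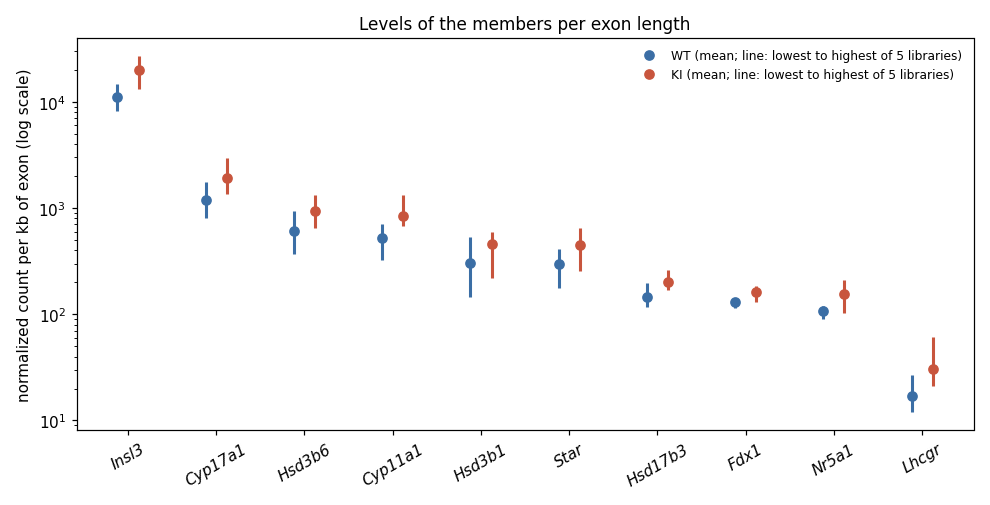
Normalized count per kilobase of annotated exon (log axis) for each member in WT (blue) and KI (red), with the mean as a point and a line from the lowest to the highest of 5 libraries. Insl3 is highest and Lhcgr lowest in both genotypes, and the order of the members is the same in both.

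Per kilobase of exon, the order of the mean levels was the same in WT and KI: Insl3, Cyp17a1, Hsd3b6, Cyp11a1, Hsd3b1, Star, Hsd17b3, Fdx1, Nr5a1 and Lhcgr. Insl3 reached 11082 ± 2705 normalized counts per kilobase in WT and 19725 ± 5404 in KI, Cyp17a1 1198 ± 370 and 1936 ± 608, and Lhcgr 17.1 ± 5.78 and 30.6 ± 17.1 (SD, n = 5 each). In WT the libraries of neighbours in this order did not overlap for Insl3 and Cyp17a1 and for Nr5a1 and Lhcgr. All other neighbours overlapped in WT. In KI, Cyp17a1 and Hsd3b6 and also Cyp11a1 and Hsd3b1 were separate as well. Hsd3b1 and Star were not told apart in either genotype, at 307 ± 151 and 297 ± 85.1 per kilobase in WT.

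The members lie on 7 chromosomes in mm10. Cyp11a1 spans chr9:57998024-58027031 on the plus strand and overlaps a long noncoding RNA gene, Gm17322, on the same strand. Nr5a1 spans chr2:38692656-38714542 on the minus strand and overlaps the antisense gene Nr5a1os. Neither overlapping gene is a row of the table, so reads of the pairs were not separated here. Lhcgr spans chr17:88737274-88792014 on the minus strand and Insl3 chr8:71689252-71690577 on the plus strand. Cyp11a1 and Fdx1 share chromosome 9 with Ddx25.

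Since most members are known targets of Nr5a1 and of cAMP signalling, the 250 bases upstream of their RefSeq starts (GRCm38.p6) were searched on both strands for letters tied to those factors. Windows were found for 7 members (8 windows): Cyp11a1, Fdx1, Hsd17b3, Hsd3b1, Hsd3b6, Insl3 and Lhcgr. The Nr5a1 motifs AAGGTCA and AAGGCCA were in none of them and in 4.08% and 5.24% of all 32851 windows, and the cAMP response element TGACGTCA was in none and in 1.55% of all. With 8 windows and shares this low, finding none decides nothing about the members. A search for exact letters also misses variant sites, and Star, Cyp17a1 and Nr5a1 had no window. The shorter letters AGGTCA, shared by many nuclear receptors and contained in AAGGTCA, were searched after that result was seen. They were in windows of Cyp11a1 and Lhcgr and in 14.0% of all windows, and these 2 windows are shown because they hold the match, in capitals. The Cyp11a1 window, chr9:58014702-58014951 on the plus strand, precedes a RefSeq start inside the gene and has the match 28 to 23 bases upstream. The Lhcgr window, chr17:88792015-88792264 on the minus strand, has it 122 to 117 bases upstream.
Cyp11a1: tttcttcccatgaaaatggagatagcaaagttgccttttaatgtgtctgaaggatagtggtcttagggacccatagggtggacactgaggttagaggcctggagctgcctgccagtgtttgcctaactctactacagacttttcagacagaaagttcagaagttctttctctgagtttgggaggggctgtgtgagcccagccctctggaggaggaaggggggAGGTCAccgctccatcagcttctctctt
Lhcgr: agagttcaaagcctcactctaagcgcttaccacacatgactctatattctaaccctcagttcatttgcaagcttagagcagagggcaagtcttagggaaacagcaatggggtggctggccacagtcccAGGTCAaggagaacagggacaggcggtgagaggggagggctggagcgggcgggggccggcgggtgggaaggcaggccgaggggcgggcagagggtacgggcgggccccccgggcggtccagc

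The genes outside the set with the most similar pattern over the 10 libraries were found by the correlation of their genotype-centred log2 values with the mean of the members. Among 15379 genes these included Gpt2 (r = 0.97), Aldh1a1 (0.97), Bhmt (0.96), Ces1d (0.96), Agt (0.95), Selenop (0.94) and Aldh1a7 (0.94), each over 10 libraries. Bhmt, Ces1d and Agt are also in the list of other Leydig identity genes. Gpt2, a mitochondrial alanine aminotransferase, was at 560 ± 124 normalized counts in WT and 957 ± 321 in KI and was called higher (log2 fold change 0.74, SE 0.19, adjusted p = 0.0113). Aldh1a1, a retinal dehydrogenase, was at 2255 ± 451 and 3334 ± 786 and passed the adjusted p but not the fold change (0.55, SE 0.17, adjusted p = 0.0264).

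**Figure D4:**
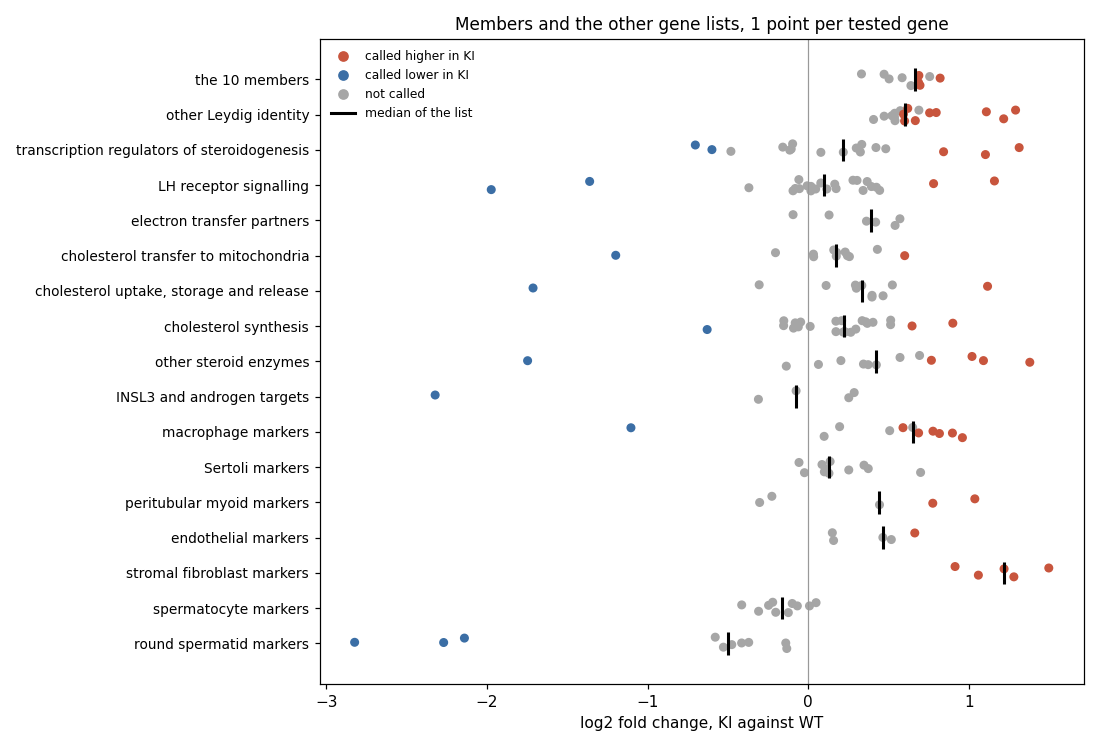
Log2 fold change (KI against WT, horizontal axis) of each tested gene in the members and the other gene lists, coloured by call, with the list median as a black bar. The members, the other Leydig genes and the endothelial and stromal fibroblast markers lie wholly to the right of 0, and the 3 lowest points are Prm1, Cldn3 and Tnp2.

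Other genes of Leydig identity also had higher means in KI. Of 22 on the list, 17 were in the table and all 17 had a higher mean in KI. Called higher were 9 and lower 0, against 6.13% and 8.22% of all genes, with a median log2 fold change of 0.60. The same shares of all genes apply to the limma calls in the lists that follow. Igf1, a growth factor made by Leydig cells, rose from 75.1 ± 22.1 to 180 ± 33.4 normalized counts (log2 fold change 1.29, SE 0.22, adjusted p = 0.000513). Pdgfra, the receptor that marks Leydig progenitors, rose by 1.22 (SE 0.18, adjusted p = 0.000194) and Bhmt, a methyltransferase of homocysteine, by 0.80. For comparison, the median log2 fold change was 0.66 for the members and 1.22 for the stromal fibroblast markers. In these mixed libraries the cells behind the rises of Igf1 and Pdgfra were not identified. The number called on the list of other Leydig genes was 5 without WT library 4 and 13 without WT library 2.

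Regulators of these genes were called in both directions. Of 17 tested, 3 were called higher and 2 lower, with a median log2 fold change of 0.22. Nr4a3, an orphan nuclear receptor, was higher in KI (46.1 ± 11.8 and 114 ± 15.7 normalized counts, log2 fold change 1.31, SE 0.19, adjusted p = 0.000114), as were Cebpb (1.10) and Esr1 (0.84). Zfpm2, a cofactor of GATA factors, fell by 0.70 on the log2 scale (SE 0.14, adjusted p = 0.00213). The other lower call was Crem, a cAMP-dependent factor of spermatids, which fell by 0.60. Neither was called lower with scaling by library totals, and Crem was not called without WT library 1, WT library 2 or KI library 5.

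Of 24 genes of LH receptor signalling that make, break down or act through cAMP or transmit the receptor signal, 2 were called higher and 2 lower, and the median log2 fold change was 0.10. Prkar2a, a regulatory subunit of protein kinase A, fell from 3680 ± 1001 to 911 ± 99.8 normalized counts (log2 fold change −1.97, SE 0.16, adjusted p = 5.9e-07). Akap1, which anchors that kinase to mitochondria, fell from 12093 ± 2729 to 4613 ± 347 (−1.36, SE 0.14, adjusted p = 6.3e-06). The adenylyl cyclases Adcy7 and Adcy5, which make cAMP, rose by 1.16 and 0.78. In all 4 genes the WT and KI libraries did not overlap. Because the libraries mix cell types, the cells behind these changes were not identified, here or in the lists that follow.

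Of the 6 partners that pass electrons to steroidogenic enzymes, none was called and 4 passed the adjusted p as higher in KI (Fdxr, Por, Cyb5a and Cyb5r3). The most abundant were Cyb5b (1136 ± 131 and 1245 ± 162 normalized counts, adjusted p = 0.45) and Cyb5r3 (558 ± 44.8 and 720 ± 92.0, log2 fold change 0.36, SE 0.10, adjusted p = 0.0169). By edgeR none of the 6 was called, by DESeq2 1 was, and with scaling by library totals 4 were. Of 10 fits that left out 1 library, Por was called in 3 and Cyb5a in 4.

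Of 47 genes that handle cholesterol, 4 were called higher (8.51%) and 3 lower (6.38%), near the shares of all genes. For transfer to mitochondria, 1 of 12 was called in each direction: Stard6, a relative of Star known from spermatids, fell by 1.20 on the log2 scale (2494 ± 497 and 1079 ± 163 normalized counts, adjusted p = 2.8e-05), and Tspo, an outer membrane protein, rose by 0.60 (adjusted p = 0.0431), a call held in 2 of 10 fits that left out 1 library. For uptake, storage and release, 1 of 11 was called in each direction, with hormone-sensitive lipase, Lipe, lower (3721 ± 1138 and 1093 ± 112, log2 fold change −1.71, SE 0.18, adjusted p = 5.6e-06) and the sterol exporter Abcg1 higher (1.12). For synthesis, 2 of 24 were called higher, Tm7sf2 (0.90) and Dhcr7 (0.65), and 1 lower, Pmvk, which fell by 0.63. Without KI library 5, only 1 gene of synthesis was called higher, without KI library 4 there were 4, and Pmvk was not called with library totals. The median log2 fold changes of the 3 lists were 0.18, 0.33 and 0.22.

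Among 13 other steroid enzymes in the table, of 30 on the list, 4 were called higher and 1 lower. Cyp19a1, the aromatase that makes estrogen from androgen, was lower in KI, at 35.0 ± 6.93 and 9.99 ± 3.60 normalized counts (log2 fold change −1.75, SE 0.27, adjusted p = 0.00022). Hsd3b4 (1.38), the estrogen sulfotransferase Sult1e1 (1.09) and Hsd17b11 (1.02) were higher. Hsd3b4 belongs to the family of Hsd3b1 and Hsd3b6 and averaged 16.2 normalized counts in WT and 37.7 in KI. Whether reads of its abundant relatives weigh on it was not tested.

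Of 5 targets of INSL3 and androgen, none was called higher, and none had an unadjusted p under 0.05 as higher or was called so by edgeR or DESeq2. Cldn3, a tight junction protein, was called lower (873 ± 205 and 172 ± 27.3 normalized counts, log2 fold change −2.32, SE 0.15, adjusted p = 6.8e-08). Chosen after its values were seen, the INSL3 receptor Rxfp2 was at 201 ± 31.0 and 162 ± 27.6 (adjusted p = 0.142).

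Markers of other testis cells were examined beside the members, and their part in the member differences was not tested. All 5 stromal fibroblast markers were called higher in KI (median log2 fold change 1.22), led by the collagens Col3a1 (109 ± 19.5 and 309 ± 55.0 normalized counts) and Col1a2 (log2 fold change 1.28), the receptor Pdgfrb (1.22) and Col1a1 (1.06), and they summed to 545 to 979 normalized counts in WT and 1298 to 1928 in KI. Of 11 macrophage markers 6 were called higher, with C1qc (0.96), C1qa (0.90) and Cd68 (0.82) among them, and Aif1 was called lower (fell by 1.10). Their summed level was 3448 to 4522 in WT and 2702 to 3097 in KI, of which Aif1 alone gave 3016 on average in WT and 1408 in KI. The muscle genes Des (1.04) and Acta2 (0.78) were the called ones of 5 tested peritubular myoid markers. Des kept its call in 3 of 10 fits that left out 1 library. All 6 myoid markers in the table, including a gene that was not tested, summed to 291 to 435 in WT and 367 to 487 in KI. Named after their values were seen, Myh11 (−0.30) and Tagln (−0.23) of the same list had lower means in KI and were not called, and Myl9 (0.44) was not called either. Cdh5 (0.66), an endothelial cadherin, was the called one of 5 endothelial markers (sum 133 to 241 and 229 to 308), and it was not called without KI library 5.

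None of 11 Sertoli markers was called by limma, edgeR or DESeq2, and 0 of them had an unadjusted p under 0.05, while 1 was called higher with scaling by library totals. Their most abundant genes, Ctsl (2229 ± 385 and 2275 ± 763 normalized counts) and Aard (1370 ± 297 and 1820 ± 552), overlapped between genotypes, and the list summed to 4729 to 7543 in WT and 4816 to 8298 in KI. KI library 5, highest for most members, was among the 2 lowest KI libraries in this sum, with KI library 4. In WT library 2, the highest WT library for the members, the Sertoli sum was the lowest of the WT libraries. Spermatocyte markers gave no call in limma, edgeR or DESeq2 (1 of 10, Spo11, passed the adjusted p as lower in KI, without reaching a fold change of 1.5), with the abundant Ybx2 at 38497 ± 5319 and 33558 ± 5431 and Piwil1 at 8699 ± 983 and 8101 ± 650. Of 10 round spermatid markers, Prm1, Tnp2 and Tnp1 were called lower (log2 fold changes −2.82, −2.27 and −2.14), and 7 passed the adjusted p alone as lower. The list summed to 102251 to 184323 in WT and 24135 to 48710 in KI, and the 3 called genes made up most of its mean in each genotype. None of the markers in these lists that the table holds was at 0 in every library.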

How the data were processed

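Genotype and library number were taken from the labels. The authors trimmed the paired-end reads of poly(A) RNA, aligned them with STAR to mm10 and assigned them to RefSeq_v91 in Partek (E/M). They deposited a normalized signal per gene, the count divided by the DESeq2 size factor of its library. Dividing by the value of 1 read returned whole reads (within 0.1) for 100% of values under 5000 reads. Columns not assigned to a library numbered 0. Exon lengths came from GENCODE vM21.

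The values were tested as log2(value + 1) with limma 3.58.1 (R 4.3.3, variance trend, genotype alone) after the low-count filter of edgeR 4.0.16 (filterByExpr) left 15389 genes, with Benjamini-Hochberg adjustment over all of them. Fold changes on this scale understate the change of low genes. The code was tested on simulated data. Alternatives were other scalings, filters, thresholds, pseudocounts of 0.1 and 10, edgeR and DESeq2 1.42.0 on recovered reads, library sets, a replicate block, and each library left out. Depth was at least 12722086 reads per library. A value of 0 would allow 3 reads, for counting error only.

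After genotype means were removed, the correlations between WT and KI libraries sharing a number were 0.306, 0.105, 0.280, 0.216 and 0.462. All exceeded 0.1, that of number 2 barely, so the numbers, which come from the labels, were used as a replicate block in an alternative fit. Passing that limit does not show that the libraries are paired. What a number stands for was not given in the sources used here. WT libraries 1, 2, 4 and 5 correlated best with the KI library of their own number, and WT library 3 with KI library 2.

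The members and the gene lists were chosen with earlier results of these data known. All members were named. From each other list the text names up to 4 called genes with the largest change, or else the 2 most abundant, and beside these the 8 genes most similar to the members and Ddx25. Crem, Fdxr, Por, Cyb5a, Rxfp2, Myh11, Tagln, Myl9, Spo11 and Jak3 were named outside this rule, after their values were seen. A few genes that the rule selects are not reported here.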

Additional observations from a re-analysis of the deposited data

Results flagged for a closer look

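In KI, 2 members had 1 library far from the other 4, among 20 groups of 5 libraries tested (each member in each genotype), where chance gives about 1 in 20. Both were KI library 5. Cyp11a1 was at 2822 normalized counts there, with a gap to the next library that was 0.877 of the range of the group. Lhcgr was at 416.8 normalized counts, with a gap of 0.909 of the range. The limit for 5 libraries was 0.71. Without KI library 5, Cyp11a1 was not called, and Lhcgr was not called with or without it. With the replicate block Lhcgr was called (adjusted p = 0.0153), and the call was lost without number 5 (limma adjusted p = 0.0556).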

How the results depend on the processing

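The log2 fold changes of the 10 members were above 0 in all 301 alternative values. Compared with the adjusted threshold of 0.05, 218 stayed on the same side, 47 lost it, 36 gained it and 0 reversed. Members called numbered 4. They were 9 with scaling by library totals, 7 by upper quartile, 8 by spermatocyte markers, 7 by adjusted p alone, 0 at a fold change of 2, and 1 in libraries 4 and 5 alone. Leaving out 1 library gave 1 to 8. Members past the adjusted p alone numbered 7, then 1 in libraries 4 and 5 alone and 1 to 10 with 1 library left out. With the replicate block 6 were called and 10 passed the adjusted p, and leaving out a number under the block, an alternative added after seeing the data, gave 7 without number 2, 8 without number 4 and 2 without number 5. Of all genes, 944 were called higher, but 2145 with library totals, 1685 with spermatocyte scaling, 1485 by adjusted p alone, 367 at a fold change of 2 and 471 in libraries 4 and 5. Called lower were 1265, but 789 with library totals, 2044 by adjusted p alone and 602 at a fold change of 2. Genes of the other lists called higher numbered 36, then 69 with library totals, 15 at a fold change of 2 and 19 in libraries 4 and 5. Those called lower numbered 13, then 20 by adjusted p alone. Ctsl, at −0.02, was 0.39 in libraries 1 to 3 alone (limma adjusted p = 0.0314). Library totals, spermatocyte scaling and upper quartile moved the median log2 fold change of all genes from 0.03 to 0.25, 0.20 and 0.12, and that of the members from 0.66 to 0.89, 0.84 and 0.76. The cause of the other changes was not tested. The values of 3 reads (2.61 to 3.62) lie far below all member values.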
